A study of Mus musculus with 16 samples.

Results

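The genotype difference in the bleomycin response is the response of Sdc1 knockout lavage vesicles minus the response of wild-type ones, where a response is bleomycin minus normal. It was measured over all 16 libraries of the series and over the 325 of 1907 miRNAs that reached 10 CPM (reads of a miRNA scaled to the same library total) in at least 4 libraries. The study isolated extracellular vesicles from mouse bronchoalveolar lavage fluid and sequenced their small RNA. The 4 groups, each of 4 libraries, were Sdc1-/- mice on C57BL/6 given bleomycin, recorded as 21 days, the same knockout without injury, C57BL/6 wild-type mice given bleomycin, and uninjured wild-type mice. Uninjured animals are labelled normal and had received PBS. Age, sex, dose and how the Sdc1 allele was made are not stated in the sources used here, and neither is whether a library came from 1 mouse or a pool, so the spread between libraries may be technical. The Sdc1 transcript and vesicle proteins are not measured by miRNA libraries, so neither the genotype nor the vesicle preparation could be checked here. Epithelial miRNAs were present in every library, miR-200a-3p at 2534 CPM or more.

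Sdc1 encodes syndecan-1, which carries heparan sulfate chains on epithelial surfaces, and such chains are known to take part in vesicle formation and uptake. Bleomycin injures the lung and is widely used to model fibrosis. A miRNA guides a silencing complex to messenger RNAs that pair with its seed (bases 2 to 8), and vesicles carry miRNAs of the cells that shed them, so miRNAs restricted to 1 cell lineage serve as tags of that lineage. A difference of 0 means that injury changed a miRNA by the same factor in both genotypes. A positive difference means that the knockout response lay above the wild-type response, which is the case both for a larger rise and for a smaller fall.

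Sequences of 11 miRNAs are given first, with the seed in capitals (RefSeq, GRCm38.p6, which matched 280 of the 325 by name). They were picked from the miRNAs described below and are not a ranking by size or precision of the difference. The first 6 lay on the positive side, the next 5 on the negative side. MiR-142b is shown beside miR-142a-3p because it is read from the opposite strand of the same locus.
miR-142a-3p: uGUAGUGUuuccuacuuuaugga
miR-142b: uCCAUAAAguaggaaacacu
miR-223-3p: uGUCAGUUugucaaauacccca
miR-1298-5p: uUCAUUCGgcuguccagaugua
miR-7b-5p: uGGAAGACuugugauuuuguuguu
miR-200a-3p: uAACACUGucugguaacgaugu
miR-100-5p: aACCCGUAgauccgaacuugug
miR-199a-5p: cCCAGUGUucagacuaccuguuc
miR-214-3p: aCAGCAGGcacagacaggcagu
miR-126a-3p: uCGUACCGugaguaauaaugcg
miR-195a-3p: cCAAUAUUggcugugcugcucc
No seed is shared among these 11. MiR-142a-3p lies at chr11:87756903-87756925 on the plus strand and miR-142b at chr11:87756906-87756925 on the minus strand. Their deposited values were identical in all 16 libraries, so they are 1 measurement listed under 2 names.

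No miRNA had a genotype difference past the threshold. With limma, 0 of 325 (0%) passed at an adjusted p of 0.05, and edgeR on the recovered reads also called 0. At an unadjusted p under 0.05 limma had 24 (7.38%), 9 with a positive difference (2.77%) and 15 with a negative one (4.62%), and edgeR had 30. DESeq2 called 2, with 57 at an unadjusted p under 0.05, and both were names of the miR-142a-3p measurement. Over the 325 miRNAs 185 differences were positive and 140 negative, between -2.51 and 2.69 on the log2(CPM + 5) scale, with a median of 0.15. Another scaling moved that median to 0.04 (median of ratios) or 0.02 (quantile). Leaving out 1 library also moved it, to 0.36 without bleomycin wild-type library 3, 0.02 without library 4 of that group and about 0 without its library 1, so a list is read below against the median of all 325. A difference beyond 1 (a factor of 2) was measured for 62 miRNAs and one beyond 2 for 6.

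The libraries left room for sizeable differences. The 95% interval reached 1.23 to either side of the estimate for the median miRNA. It lay wholly within 1 of zero for 14 of 325 miRNAs. It lay within 2 of zero, a factor of 4, for 211 of 325 (64.9%). The count of 0 therefore does not show that the genotypes respond alike. Weighting each library by its own spread (limma array weights) gave 102 calls, 60 positive and 42 negative, with weights between 0.237 for bleomycin wild-type library 1 and 3.66 for bleomycin knockout library 3. Normal knockout library 2 and bleomycin wild-type library 3 were also near the low end, at 0.242 and 0.296. In the other fits with calls, these were miR-142a-3p and its antisense name alone.

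Most of the response ran the same way in both genotypes. The knockout and wild-type responses had the same sign for 261 of 325 miRNAs (80.3%), and across miRNAs Pearson's r was 0.78 and Spearman's rho 0.77. The 2 responses use separate libraries, and miRNAs are not independent points because they share each library's total. Limma called 76 responses in the knockout (23.4%), 48 rises (14.8%) and 28 falls (8.62%), and 112 in wild type (34.5%), 65 rises (20%) and 47 falls (14.5%). With CPM recomputed without miR-21a-5p these were 77 rises and 19 falls in the knockout and 85 rises and 34 falls in wild type, and with log2 reads as a covariate 54 rises and 60 falls in the knockout. Both genotypes called 56, which is 73.7% of the knockout calls and 50% of the wild-type ones, and these all moved in the same direction. Of the 20 called in the knockout alone, 20 had the same sign in wild type, and of the 56 called in wild type alone, 53 had the same sign in the knockout. A call in 1 genotype is no test of a difference, and the median difference was 0.34 in the first set and 0.10 in the second.

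**Figure D1:**
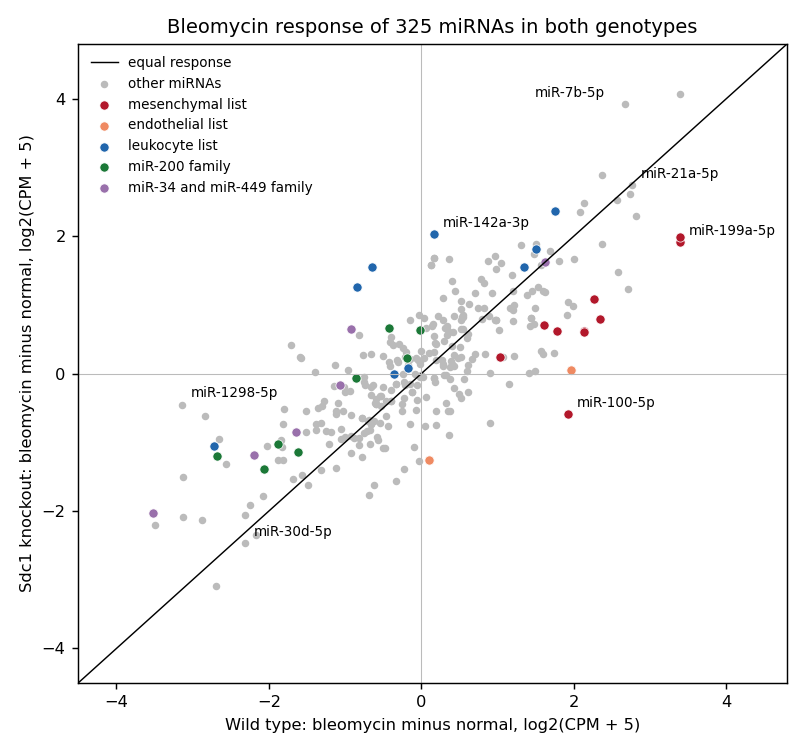
Each point is 1 of 325 miRNAs, with the knockout response (bleomycin minus normal, log2(CPM + 5)) on the vertical axis, the wild-type response on the horizontal axis and a line where both are equal. MiR-21a-5p lies on the line, the mesenchymal and endothelial miRNAs below it, and the leukocyte and miR-200 family miRNAs above it.

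MiR-142a-3p, a miRNA restricted to blood cells, had the smallest p of all. It had 22.0, 18.3, 22.1 and 44.3 CPM in the 4 bleomycin knockout libraries and 2.18, 5.45, 1.79 and 0.844 CPM in the normal knockout ones. It had 6.42, 5.92, 11.3 and 1.99 CPM in bleomycin wild type and 7.31, 6.26, 4.19 and 2.08 CPM in normal wild type. Every bleomycin knockout library lay above all 12 others, while the wild-type libraries of both conditions overlapped. The knockout response was 2.04 and the wild-type response 0.16, a difference of 1.87 (SE 0.43, 95% interval 0.96 to 2.78, limma adjusted p = 0.0671). The level was low, between 8 and 196 reads, and its mean of 10.2 CPM is below the 50 CPM used to pick miRNAs for description, so it was singled out after its value was seen. It reached 10 CPM only in the 4 bleomycin knockout libraries and in bleomycin wild-type library 3. It therefore passed the filter of 10 CPM in 4 libraries through the group where it is high, and the separation of that group is not independent of the filter. Since both names enter the adjustment with tied p-values, the adjusted p was 0.126 with each such locus counted once. Over the alternatives the difference ran from 0.95 to 3.22 and the adjusted p from 0.000506 to 0.373, and the fits past the threshold included those without normal knockout library 2, without bleomycin wild-type library 3 and without normal wild-type library 4.

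The other arm of the same hairpin, miR-142a-5p, was looked at for that reason after its value was seen, and had a positive difference of 2.21 (SE 0.94). It had 73.3, 15.5, 78.5 and 23.7 CPM in bleomycin knockout and 5.97, 29.8, 5.45 and 8.02 CPM in normal knockout. In bleomycin wild type it had 1.77, 18.1, 86.2 and 6.81 CPM and in normal wild type 41.1, 40.7, 24.4 and 11.7 CPM. Bleomycin wild-type library 3 was the highest of all 16 libraries, and the groups overlapped. Both arms of miR-223, a miRNA of granulocytes and macrophages, were on the positive side too. MiR-223-3p had 42.3, 35.4, 58.5 and 45.9 CPM in bleomycin knockout and 91.4, 161, 67.3 and 94.4 CPM in normal knockout. Against this it had 3.54, 37.7, 68.1 and 29.4 CPM in bleomycin wild type and 219, 236, 216 and 140.2 CPM in normal wild type. The bleomycin groups overlapped, and 1 normal knockout library, the second, lay within the normal wild-type range. The knockout response of miR-223-3p was -1.06 and the wild-type response -2.72, a difference of 1.67 (SE 0.70, limma adjusted p = 0.623). For miR-223-5p the difference was 2.10 (SE 0.88).

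MiR-1298-5p, encoded on the X chromosome, had the largest positive difference. It had 178, 60.6, 252 and 66.6 CPM in bleomycin knockout and 81.0, 536, 107 and 143 CPM in normal knockout. In wild type it had 29.2, 99.1, 235 and 31.3 CPM with bleomycin and 1221, 747, 580.1 and 347 CPM without. Only in wild type were the conditions separate, and normal knockout library 2 stood at the level of normal wild type while the other 3 did not. Its response was -0.45 in the knockout and -3.14 in wild type, which differ by 2.69 (SE 0.97, 95% interval 0.67 to 4.72, limma adjusted p = 0.623). Its wild-type fall was called in all 31 alternatives. MiR-1264-3p, another X-linked miRNA, had a difference of 2.22 (SE 1.31).

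MiR-7b-5p, of the miR-7 family of neuroendocrine cells, rose in both genotypes in every alternative, and its difference was 1.25 (SE 0.57, 95% interval 0.05 to 2.45, limma adjusted p = 0.623). It had 192, 135, 108 and 107 CPM in bleomycin knockout and 4.52, 4.36, 4.36 and 2.95 CPM in normal knockout, against 84.0, 141, 142 and 29.8 CPM in bleomycin wild type and 16.4, 10.6, 5.74 and 6.23 CPM in normal wild type. The bleomycin groups overlapped, and every normal knockout library was below every normal wild-type one. MiR-7a-5p, which has the same seed and was looked at for that reason after the values were seen, had a difference of -0.18 (SE 0.51).

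Epithelial miRNAs followed on the positive side. MiR-200a-3p, which keeps the epithelial state by repressing Zeb1 and Zeb2, had 20187, 8522, 20525 and 8149 CPM in bleomycin knockout and 22680.1, 36443, 22617 and 42184 CPM in normal knockout. In bleomycin wild type it had 2534, 13090, 18205 and 4142 CPM and in normal wild type 40809, 41504, 63306 and 39002 CPM. Conditions did not overlap in either genotype, and bleomycin libraries of the 2 genotypes did. The knockout response was -1.19 and the wild-type response -2.68, a difference of 1.48 (SE 0.74, 95% interval -0.06 to 3.03, limma adjusted p = 0.623). The other arm, miR-200a-5p, had a difference of 0.47 (SE 0.56). MiR-449a-5p of multiciliated cells had a difference of 1.58 (SE 0.78) and miR-93-5p, of a cluster linked to proliferation, one of 1.31 (SE 0.64). MiR-6236 (2.13, SE 1.04), miR-672-5p (1.43, SE 0.85) and miR-16-1-3p (1.04, SE 0.56) complete the 10 positive differences of smallest p at a mean of 50 CPM or more.

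On the negative side the largest difference was that of miR-100-5p, a miRNA of the miR-99 family that is abundant in mesenchymal cells. It had 1708, 3203, 1459 and 3770.1 CPM in bleomycin knockout and 6609, 1224, 7908 and 2416 CPM in normal knockout. It had 11534, 4661, 2638 and 3433 CPM in bleomycin wild type and 1108, 1143, 689 and 2657 CPM in normal wild type. Normal knockout libraries 1 and 3 were the highest of the knockout and library 2 the lowest, so its knockout groups overlapped throughout. Its response was -0.59 in the knockout and 1.92 in wild type, which differ by -2.51 (SE 0.85, 95% interval -4.30 to -0.72, limma adjusted p = 0.623). Among miRNAs called in at least 1 genotype it was 1 of 3 whose responses had opposite signs, the others being miR-125b-1-3p (-0.15 and 1.15 in knockout and wild type) and miR-135b-3p (0.13 and -1.13), both named for that reason.

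MiR-214-3p and 1 gene copy of miR-199a come from a long transcript, Dnm3os, that is active in fibroblasts. MiR-199a-5p had 3355, 4013, 3831 and 6719 CPM in bleomycin knockout and 1798, 498, 1823 and 1045 CPM in normal knockout, against 3166, 4784, 3641 and 6717 CPM in bleomycin wild type and 327, 408, 282 and 773 CPM in normal wild type. The bleomycin groups spanned nearly the same range, and it rose in both genotypes in every alternative. The knockout response was 1.91 and the wild-type response 3.39, a difference of -1.48 (SE 0.64, 95% interval -2.83 to -0.13, limma adjusted p = 0.623). MiR-214-3p had 191, 146, 244 and 212 CPM in bleomycin knockout and 178, 51.2, 179 and 88.1 CPM in normal knockout. In wild type it had 302, 180.1, 414 and 277 CPM with bleomycin and 33.8, 61.8, 33.3 and 97.8 CPM without. Conditions overlapped in the knockout and were separate in wild type. The difference was -1.54 (SE 0.63, limma adjusted p = 0.623), and their other arms, miR-199a-3p and miR-214-5p, had -1.52 (SE 0.80) and -1.16 (SE 0.63).

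MiR-126a-3p, the main miRNA of endothelial cells, had 854, 1489, 942 and 2076 CPM in bleomycin knockout and 2616, 323, 3087 and 820.4 CPM in normal knockout. It had 3015, 1137, 903 and 2405 CPM in bleomycin wild type and 279, 282, 437 and 906 CPM in normal wild type. Within the normal knockout the values spread widely, from the second library to the third. Its response was 0.05 in the knockout and 1.96 in wild type, which differ by -1.91 (SE 0.90, 95% interval -3.80 to -0.02, limma adjusted p = 0.623). MiR-126a-5p had -1.36 (SE 0.81). Both arms of miR-195a, which shares a cluster with miR-497a, were negative, at -1.62 (SE 0.66) for the 3p and -1.46 (SE 0.68) for the 5p arm.

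MiR-212-5p, of the miR-132 and miR-212 transcript induced by CREB, had the smallest p on the negative side at a low level, and was chosen after its value was seen. It had 21.7, 20.1, 16.1 and 20.8 CPM in bleomycin knockout and 6.62, 5.45, 5.92 and 4.22 CPM in normal knockout, against 85.5, 39.9, 33.1 and 27.9 CPM in bleomycin wild type and 0, 2.35, 1.43 and 6.69 CPM in normal wild type. Conditions were separate in both genotypes, and bleomycin knockout lay below bleomycin wild type in every library. The knockout response was 1.23 and the wild-type response 2.71, a difference of -1.49 (SE 0.45, 95% interval -2.42 to -0.55, limma adjusted p = 0.396). In normal wild-type library 1 the count was 0, which at that depth allows up to 2.74 CPM. MiR-132-3p of the same transcript had -0.53 (SE 0.55).

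Abundant and paired miRNAs complete the negative side. MiR-26a-5p, among the most abundant of all, had a knockout response of -1.07 and a wild-type response of -0.10, a difference of -0.97 (SE 0.44). For let-7i-5p the responses were 1.04 and 1.92 and the difference -0.88 (SE 0.46). MiR-221-5p and miR-222-3p, of 1 X-linked cluster, had -1.25 (SE 0.55) and -1.23 (SE 0.60). Their other arms were nearer to 0, at -0.18 (SE 0.68) for miR-221-3p, the more abundant arm of that hairpin, and -0.09 (SE 0.49) for miR-222-5p, and both changed sign under 6 alternatives. Likewise let-7i-3p had -0.20 (SE 0.47). In the knockout miR-222-3p fell by 1.56 (SE 0.42), called in every alternative, while its wild-type response was -0.33 (SE 0.42).

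**Figure D2:**
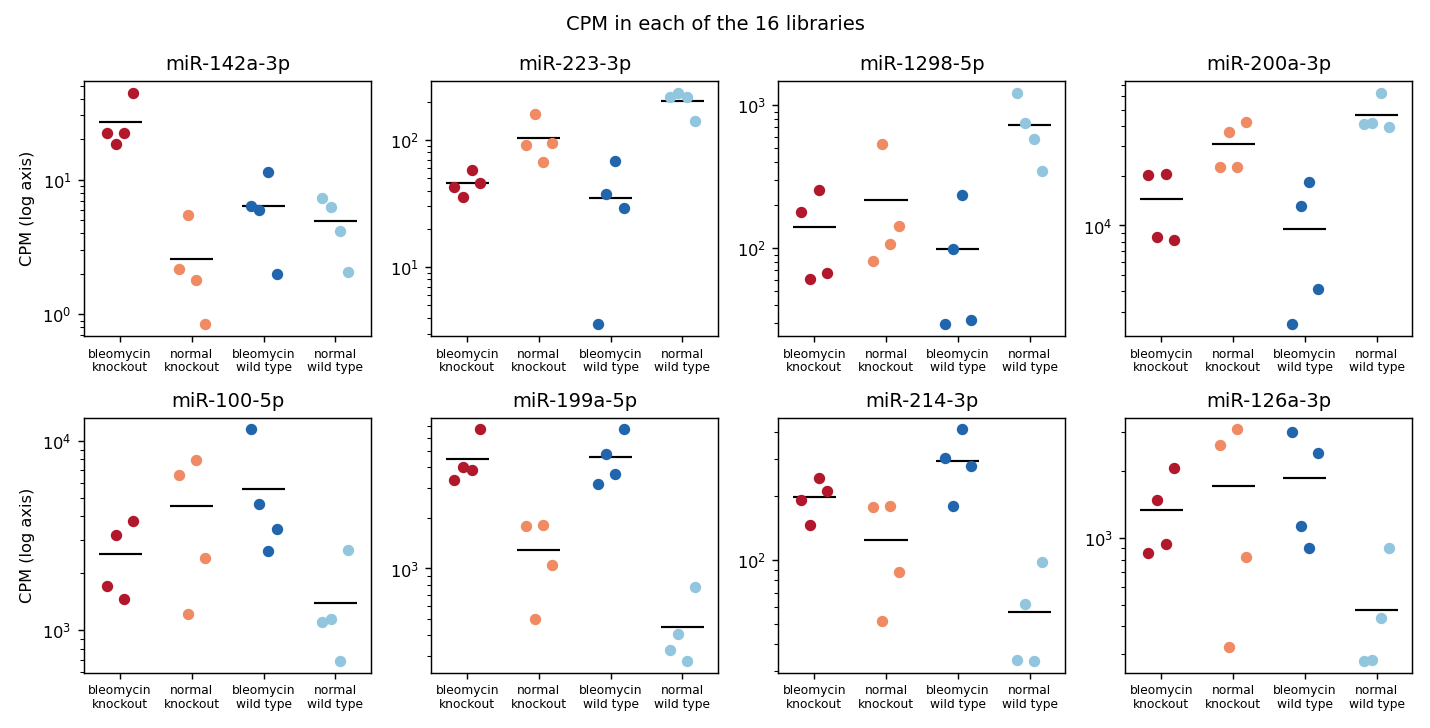
CPM on a log axis in each of the 16 libraries for 8 miRNAs, with a bar at the mean of each group of 4. MiR-142a-3p is high in the 4 bleomycin knockout libraries alone, and normal knockout library 2 is the lowest of its group for the 4 miRNAs of the lower row.

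**Figure D3:**
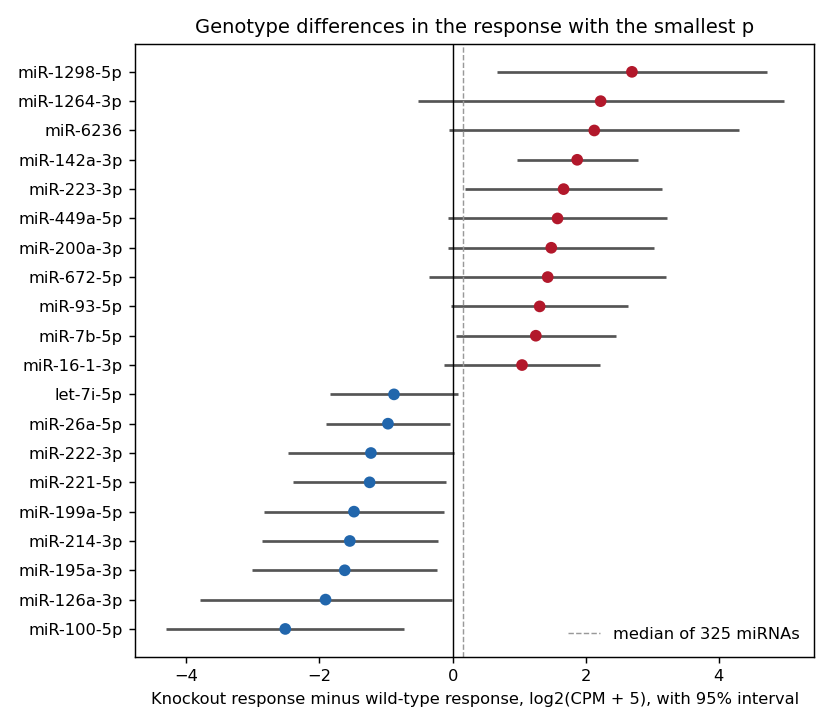
Knockout response minus wild-type response on the log2(CPM + 5) scale with its 95% interval, for the 10 positive and 9 separate negative miRNAs of smallest p at a mean of 50 CPM or more, and for miR-142a-3p. The interval of miR-142a-3p is among the narrowest, and the estimates of miR-1298-5p and miR-100-5p are the farthest from 0 on either side, with wide intervals.

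Lists of lineage miRNAs had no member past the threshold for the genotype difference in the limma fit to the deposited CPM of all libraries without weights or covariate. This held for each of the 16 lists. All 10 tested members of the mesenchymal list, of 11 listed, had negative differences, from -2.51 to -0.79 with a median of -1.45, against 0.15 and 140 negative differences among all 325. These are not 10 separate measurements. The list counts both arms of miR-199a, miR-199b and miR-214, and miR-199a-3p (-1.52) and miR-199b-3p (-1.53) have the same mature sequence. With array weights 8 of its 10 members were called and the median was -2.38, against 102 of all 325 called and a median of 0.28. Of the 15 negative differences with an unadjusted p under 0.05, 3 were in it. Its median response was 0.67 in the knockout and 2.14 in wild type. The endothelial list, 4 names for 2 measurements, the 2 arms of miR-126a, had a median of -1.63, and all 4 names were called with array weights. Its median responses, -0.60 in the knockout and 1.03 in wild type, lie between arms that differ. In knockout and wild type miR-126a-3p had 0.05 and 1.96, and miR-126a-5p had -1.26 and 0.11. In bulk vesicle RNA, a change in the number of vesicles from a cell type and a change in its miRNA per vesicle cannot be told apart.

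On the positive side were all 9 tested members of the leukocyte list (median 0.61, from 0.20 to 2.21) and all 8 of the miR-200 family (median 0.73). Of the 9 positive differences with an unadjusted p under 0.05, 4 were leukocyte miRNAs, but these are the 2 arms of miR-142a and of miR-223, and miR-142b, a copy of miR-142a-3p, is also among the 9. With array weights 4 of the 9 leukocyte members were called, beside 102 of all 325, 2 of 8 in the miR-200 family and 0 of 5 in the erythrocyte list. Among list members miR-142a-3p alone passed in the other fits with calls. The median leukocyte response was 1.55 in the knockout and -0.18 in wild type, and that of the miR-200 family -0.54 and -1.24. MiR-150-5p of lymphocytes and miR-342-3p, which with miR-223-3p are the most abundant leukocyte members, had differences of 0.61 (SE 0.79) and 0.35 (SE 0.97). The miR-34 and miR-449 family of ciliated cells had 5 of 6 positive (median 0.96), the miR-17 seed family 4 of 4 (0.75), other epithelial miRNAs 6 of 7 (0.38), and the miR-322 and miR-503 cluster 8 of 10 (0.66). The erythrocyte list had 5 of 5 positive with a median of 1.45, but these are 3 measurements, and miR-486a-5p had an SE of 1.59. All tested names but miR-451a are arms of miR-486a or their antisense names, so the median is that of 1 hairpin. MiR-451a had a difference of 0.51, which changed sign under 3 alternatives. Leaving out 1 library kept the mesenchymal median in the range -1.90 (without normal knockout library 2) to -1.17 (without normal knockout library 1), and the endothelial one in the range -2.25 (without normal knockout library 2) to -1.27 (without normal knockout library 3). The other medians of these lists kept their sign under each scaling and without each single library, but 1 library moved them by over 1.5 times. The leukocyte median ran from 0.38 (without normal wild-type library 2) to 1.23 (without bleomycin wild-type library 3), and the erythrocyte one from 0.59 (without normal knockout library 3) to 2.45 (without bleomycin wild-type library 3). For the miR-200 family the range was 0.48 (without bleomycin wild-type library 1) to 0.96 (without bleomycin wild-type library 3), and for other epithelial miRNAs 0.06 (without bleomycin wild-type library 1) to 0.58 (without bleomycin wild-type library 2). The miR-34 and miR-449 median ran from 0.61 (without bleomycin wild-type library 1) to 1.5 (without bleomycin wild-type library 3) and the miR-17 seed median from 0.42 (without bleomycin wild-type library 1) to 1.02 (without bleomycin knockout library 2). Members around miR-322 and miR-503 had a median of 0.33 (without normal wild-type library 3) to 0.92 (without normal wild-type library 1). With array weights their median was 0.09, below the 0.28 of all 325, and 1 of 10 was called.

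The other lists had no single direction. The injury and inflammation list, led by miR-21a-5p, had 4 of 11 positive and a median of -0.02 beside responses of 1.55 and 1.62. The miR-30 family had 3 of 8 positive (-0.07), the miR-29 family 2 of 4 (0.05), the Dlk1-Dio3 cluster 2 of 9 (-0.24), the smooth muscle list 1 of 4 (-0.30), and liver and muscle miRNAs 3 of 5 (0.80). The medians of these 6 lists changed sign under at least 1 scaling or without 1 library. The let-7 family had 2 of 9 positive, with a median of -0.34 that was -0.83 without bleomycin wild-type library 3 and about 0 without library 1 of that group.

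**Figure D4:**
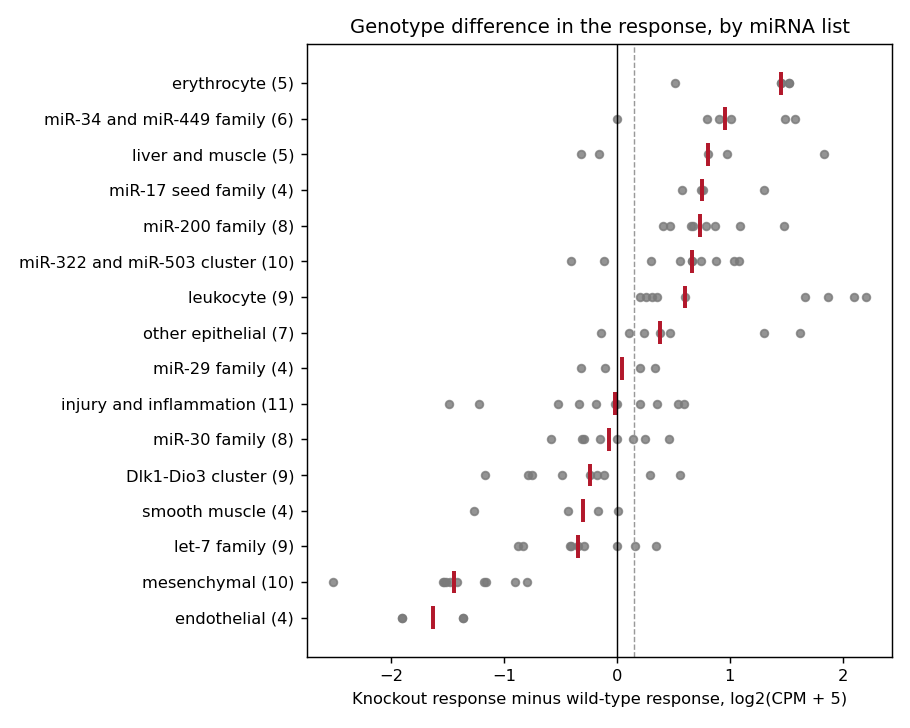
Knockout response minus wild-type response on the log2(CPM + 5) scale for each tested member (grey) of the 16 lists, with the number tested in brackets, the list median as a red bar and the median of all 325 miRNAs as a dashed line. The endothelial and mesenchymal members all lie left of 0, and the leukocyte, miR-200, miR-17 seed and erythrocyte members all lie right of it.

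The genotype difference in the response can also be read as knockout minus wild type after bleomycin, less the same in normal lungs, and the lists divided over these parts. For the mesenchymal list the median knockout minus wild-type difference was 0.06 after bleomycin, with 5 of 10 members above 0, and 1.48 in normal lungs, with 9 of 10 above 0. For the endothelial list it was -0.25 after bleomycin and 1.38 in normal lungs. In both lists the genotypes lay farther apart in the normal libraries than in the bleomycin ones. The leukocyte list had 0.48 after bleomycin (7 of 9 above 0) and -0.53 in normal lungs (0 of 9), and the miR-200 family 0.40 (7 of 8) and -0.23 (1 of 8). All 325 miRNAs had medians of 0.04 and -0.01. For miR-142a-3p the 2 parts were 1.47 and -0.40, so most of its difference lay in the bleomycin libraries, whereas for miR-1298-5p they were 0.71 and -1.99 and for miR-199a-5p -0.02 and 1.46.

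Depth moved with the mesenchymal level in the normal knockout libraries. Recovered reads ran from 1094908 to 12837837 over the 16 libraries, so 1 read was worth 0.0779 to 0.913 CPM, and limits from a count of 0 (3 reads) cover counting error only. The summed mesenchymal share in bleomycin and normal knockout was 1.72 to 2.72% and 0.616 to 2.34% of CPM, against 2.07 to 2.83% and 0.458 to 0.973% in bleomycin and normal wild type. Normal knockout libraries 1 and 3, with 12395166 and 12837837 reads, held 2.24 and 2.34%, and library 2, with 2753095 reads, held 0.616%, within the normal wild-type range. Other groups were mixed. Bleomycin wild-type libraries 1 and 4, deeper than 2 and 3, held the larger shares. Normal wild-type libraries 1 and 3, with 1094908 and 9062406 reads, held 0.458 and 0.468%. The deepest bleomycin knockout library, 2, held 2.11%, below library 4 (2.72%). Mean reads were 9366221 in normal knockout and 4118013 to 5344427 in the other groups. With log2 reads as a covariate the mesenchymal median was -1.07, and without the 3 normal libraries of fewest reads -1.69. The part of depth in these differences was otherwise not tested.

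The leukocyte members together held 0.0335 to 0.0965% of CPM in bleomycin knockout and 0.031 to 0.0444% in normal knockout, against 0.0288 to 0.159% in bleomycin wild type and 0.0329 to 0.0674% in normal wild type. The highest sum was that of bleomycin wild-type library 3, which held 659.6 CPM of miR-342-3p and 601 CPM of miR-150-5p, each above the other 3 libraries of its group. Without bleomycin wild-type libraries 1 and 3 the list median was 1.36, and with log2 reads as a covariate 0.38. No listed member of either list was at 0 in all libraries.

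**Figure D5:**
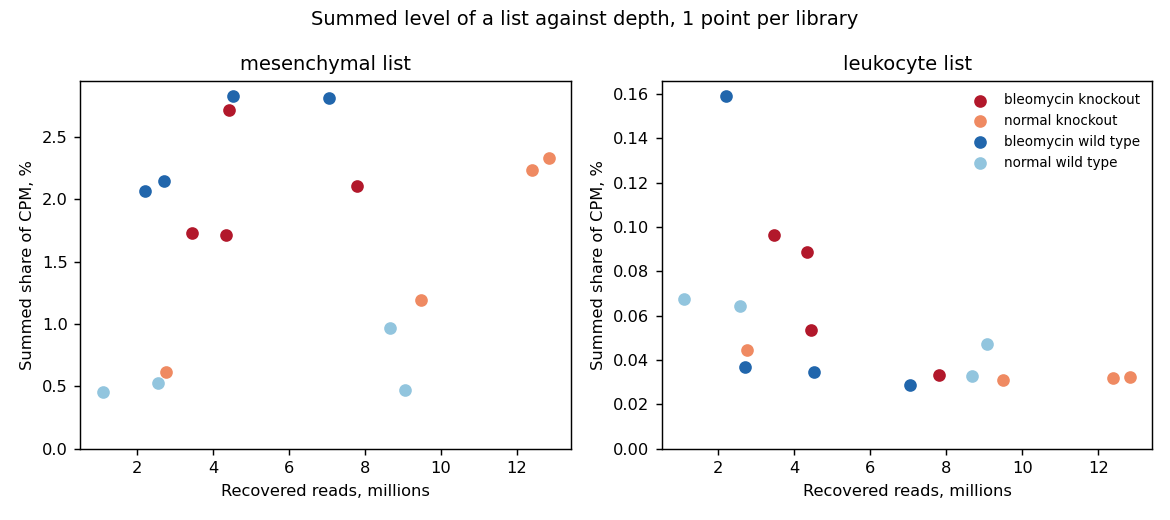
Summed share of CPM of the mesenchymal list (left) and of the leukocyte list (right) against recovered reads, 1 point per library. Among normal knockout libraries the 2 deepest have the largest mesenchymal share, and the leukocyte share is highest in bleomycin wild-type library 3.

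Several miRNAs of large response had similar estimates in both genotypes. MiR-21a-5p, the most abundant miRNA and one widely described in fibrotic tissue, held 224085, 324444, 200263 and 309854 CPM in bleomycin knockout and 49108, 34849, 46169 and 28397 CPM in normal knockout. It held 279807, 226574, 161110 and 347743 CPM in bleomycin wild type and 61185, 38308, 37592 and 19118 CPM in normal wild type. Ranges of the same condition overlapped between genotypes, and the difference was -0.02 with a 95% interval of -1.01 to 0.98. The difference was -0.15 (-1.30 to 1.01) for miR-30d-5p, 0.14 (-0.95 to 1.24) for miR-30a-5p, 0.36 (-0.80 to 1.51) for miR-146b-5p and -0.40 (-1.99 to 1.18) for miR-351-5p. For miR-184-3p, which had the largest knockout rise (4.08 beside 3.40 in wild type), it was 0.68 (SE 0.80). The responses of these 6 miRNAs were called in both genotypes under every alternative that tested them. The genotype differences of miR-184-3p and miR-146b-5p were called with array weights, which called 102 of all 325. Over the alternatives these 2 differences reached 1.95 and 1.21. Those of the others were called under no alternative.

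Precursor and position were not used by the contrast. The 2 arms of a hairpin are cut from 1 precursor, and for 51 of 77 hairpins with both arms tested the 2 differences had the same sign (Pearson's r 0.72, Spearman's rho 0.64, over hairpins that share libraries and totals). Of 23 clusters, hairpins on 1 strand with gaps of at most 10000 bp, 13 had differences of 1 sign only. These include the miR-200a, miR-200b and miR-429 cluster on chromosome 4 (5 positive, median 0.87), the miR-25, miR-93 and miR-106b cluster on chromosome 5 (5 positive, 0.76) and the miR-195a and miR-497a cluster on chromosome 11 (3 negative, -1.46). Signs often match without any link, since 185 of all 325 differences were positive and 140 negative. Most of the 13 clusters held only 2 or 3 tested names, some of them arms of 1 hairpin. The share expected without a link was not computed for clusters or arms.

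Members of 1 seed family are shown here because their genes lie at separate loci while their targets are shared. The 3 tested miRNAs of the miR-99 seed had differences of -2.51 for miR-100-5p, -0.87 for miR-99b-5p and -0.73 for miR-99a-5p. The 4 of the miR-25 seed, linked to proliferation clusters, had 1.25 for miR-92b-3p, 1.01 for miR-25-3p, 0.87 for miR-92a-3p and 0.76 for miR-32-5p. These 2 families were picked after their values were seen.
miR-99a-5p: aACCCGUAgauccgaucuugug
miR-99b-5p: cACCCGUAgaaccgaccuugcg
miR-25-3p: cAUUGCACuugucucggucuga
miR-92a-3p: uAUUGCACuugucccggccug
miR-92b-3p: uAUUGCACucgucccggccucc
miR-32-5p: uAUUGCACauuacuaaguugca
The capitals are the shared seeds, and miR-100-5p is printed above. MiR-99a-5p and miR-100-5p differ at 1 base. How reads were divided between such close sequences is not known, so family members may not be separate measurements. The SE of these differences ran from 0.56 to 1.13, and none passed the threshold.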

How the data were processed

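Small RNA of vesicles from 16 lavage samples was sequenced, and groups were taken from the sample titles. The authors deposited 1 table of CPM for 1907 mature mouse miRNAs, and each deposited column sums to 1000000 over them, so values are shares of miRNA reads. Per the submitters' processing notes, Bowtie2 2.2.3 and the build GRCh38, which is human, are named with no role given. No source used here gives the read counter, the trimming or the miRBase release. Dividing each column by its smallest step gave whole reads for 100% of values (tolerance 0.001).

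From these values log2(CPM + 5) was fitted with limma 3.58.1 in R 4.3.3 (eBayes with a trend, 4 group means, 12 residual degrees of freedom), with Benjamini-Hochberg adjustment over the 325 miRNAs at 0.05. A pseudocount of 5 understates changes of low miRNAs. Intervals use limma's moderated errors. Alternatives were pseudocounts 1 and 20, no filter or 100 CPM, other scalings, the replicate block, array weights, log2 reads as a covariate, edgeR 4.0.16 and DESeq2 1.42.0 on recovered reads, and left-out libraries. Leaving out 1 name of each of 11 antisense pairs was added after seeing the data. The fit was tested on simulated data with known interactions. The simulated reads were drawn independently around 1 mean per miRNA, without outlying libraries, so they do not show how the fit behaves on these libraries.

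Named miRNAs were the 10 of smallest p in each direction at a mean of 50 CPM or more, their other arms, the 8 most abundant, the 5 largest called rises and falls per genotype and 3 per list. Any other is said to be chosen after its value was seen. The contrast, the lists and this rule were chosen with earlier results of these data known. The labels do not say that replicate numbers pair libraries. The 16 lists are those given in the report, and none was tested as a set.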

Additional observations from a re-analysis of the deposited data

Results flagged for a closer look

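In 16 of 324 groups of 4 libraries, over 81 miRNAs, 1 library lay far from the other 3, with a gap beyond Dixon's critical value for 4 samples. That is 4.94% of groups, and chance alone flags about 1 in 20. Far above the others were miR-200a-3p in normal wild-type library 3 (63306 CPM, the other 3 between 39002 and 41504) and miR-221-5p in bleomycin wild-type library 1 (103 CPM, the other 3 between 37.7 and 40.8). So were miR-222-3p in normal knockout library 2 (809 CPM, the other 3 between 632 and 654) and miR-195a-5p in normal wild-type library 4 (28.9 CPM, the other 3 between 6.65 and 8.22). The same held for miR-199a-3p in normal wild-type library 4 (1832 CPM, the other 3 between 499.6 and 549) and for miR-184-3p in normal knockout library 2 (17.1 CPM, the other 3 between 1.87 and 2.85). High in 1 library were also miR-342-3p in bleomycin wild-type library 3 (659.6 CPM, the other 3 between 57.6 and 64.3) and miR-182-5p in normal wild-type library 3 (1660.5 CPM, the other 3 between 1005 and 1094). The last of these were miR-29a-3p in normal knockout library 4 (6361 CPM, the other 3 between 5221 and 5354) and miR-29b-3p in normal wild-type library 3 (57.5 CPM, the other 3 between 30.9 and 31.5). Far below the others were miR-223-3p in normal wild-type library 4 (140.2 CPM, the other 3 between 216 and 236) and miR-7b-5p in normal knockout library 4 (2.95 CPM, the other 3 between 4.36 and 4.52). Low in 1 library were also miR-93-3p in normal wild-type library 1 (9.13 CPM, the other 3 between 11.3 and 11.8) and miR-676-3p in normal wild-type library 3 (179 CPM, the other 3 between 716 and 875). To these come miR-34c-5p in bleomycin knockout library 2 (3817 CPM, the other 3 between 10990.1 and 13218) and miR-145a-5p in bleomycin knockout library 4 (223 CPM, the other 3 at 278). Normal wild-type libraries 3 and 4 held 4 and 3 of these, and no other library more than 2. No genotype difference passed its test, so none is listed as such.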

How the results depend on the processing

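The count of 0 calls for the genotype difference became 2 without miR-21a-5p in the total, with log2 reads as a covariate, with DESeq2 and without bleomycin wild-type libraries 1 and 3. In each case these were miR-142a-3p and miR-142b. It became 102 with array weights, and the cause was not tested. Leaving out 1 library gave 0 to 2, with 2 (the same pair) without normal knockout library 2, bleomycin wild-type library 3 or normal wild-type library 4. Responses called numbered 76 in the knockout and 112 in wild type. With a 100 CPM filter, which tests 174 miRNAs, they were 38 and 60. In the knockout they were 187 with array weights and 133 with DESeq2. In wild type they were 67 without the 3 normal libraries of fewest reads, 2 of which are wild type. Leaving out 1 library gave 57 to 85 in the knockout and 74 to 134 in wild type, the lowest without normal wild-type library 2. With the replicate block there were 0 calls of the genotype difference, 72 and 105 responses. Libraries with the same number did not deviate together throughout: correlations ran from -0.628 to 0.798, 9 of 24 pairs were above 0.1, and 4 of 16 libraries correlated best with their own number. Some pairs did, at 0.798 for library 2 of normal knockout and normal wild type and 0.757 for library 3 of both bleomycin groups. The lowest, -0.628, was that of normal knockout and bleomycin wild-type library 3. Of the 81 miRNAs examined, 61 kept the sign of their difference under all alternatives run on them, and the other 20, miR-21a-5p and miR-30d-5p among them, had uncalled differences that changed sign under 1 or more. Depth limits what can be said of miRNAs of few reads, miR-142a-3p included.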

Other observations

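MiR-142a-3p was not the only locus listed under 2 names. Of the 325 tested miRNAs, 11 pairs of antisense names had values that were identical or differed by at most 0.00957 on the log2 scale in any library, 8 of them identical in all 16. In the 8 pairs with both sequences at hand, the mature sequences are reverse complements over 19 to 20 bases. The pairs include miR-126a-3p with miR-126b-5p, miR-24-3p with miR-3074-5p and miR-486a-5p with miR-486b-3p. With 1 name of each left out, 314 miRNAs were tested, 0 genotype differences were called and 22 had an unadjusted p under 0.05.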
